A study of Mus musculus with 9 samples.

Results

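The transferrin receptor gene Tfrc and 8 other genes that move, store or sense iron were followed in mouse retinas 7 days after an injection of the peptide AAP, the peptide HAN or saline. The 9 genes (Tfrc, Slc11a2, Trf, Fth1, Ftl1, Slc40a1, Cp, Aco1 and Ireb2) are 9 of 23889 genes tested, and were found as every array probe whose transcript accession maps to one of these symbols, which gave 13 probes. Tfrc was chosen by its measured values: its level was higher in HAN retinas than in saline retinas in these same arrays. Its HAN values are therefore a description and carry no test. The other 8 genes were taken for their roles in iron handling, with earlier results of these data known.

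AAP and HAN are peptides made to bind vascular endothelial growth factor with high affinity, per the series title. The 3 groups were AAP, HAN and phosphate-buffered saline (PBS) as the negative control, all injected into the vitreous of the right eye of adult male C57BL/6 mice, with no other allele or agent named. The labels state 1 µM for all 3 injections, PBS included. Each group had 12 mice, and 4 retinas went into each tube, so each of the 3 samples of a group is a pool. The p-values rest on the spread between pools of a group, estimated from all 3 groups together. limma also draws that spread toward that of other genes. Total RNA was labelled with Cy3 and hybridised to 1-colour Agilent arrays, 1 pool to an array. Every level below is the log2 of the spot intensity minus the log2 of the 75th percentile of that array, so 0 means a signal at that percentile. A gene passed the test where limma's adjusted p over all 23889 genes was under 0.05.

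The arrays lay on 3 slides. Slide 1 held PBS 1, PBS 2, PBS 3 and AAP 1, slide 2 held AAP 2, AAP 3, HAN 1 and HAN 2, and slide 3 held HAN 3. HAN and PBS pools thus shared no slide, and AAP 1 is the only peptide pool that can be set against PBS within a slide. A fit with slide as a fixed block links HAN 1 and HAN 2 to PBS through the AAP pools. AAP 1 is its only peptide pool on slide 1, and HAN 3, alone on its slide, drops out. The 10 rod photoreceptor markers were above background on every array, with a mean level of 6.32 to 6.70 in AAP pools, 6.24 to 6.34 in HAN pools and 6.30 to 6.57 in PBS pools. Some other marker lists stood apart in single pools. The skeletal muscle list (10 of 11 genes measured) was 6.08 above the PBS mean in AAP 1 and 4.73 above it in AAP 3, against -0.34 in AAP 2, -0.18 to -0.02 in HAN pools and -0.18 to 0.31 in PBS pools. The microglia and macrophage list (10 of 10 measured) was 0.42, 0.72 and 1.25 below the PBS mean in AAP 1, 2 and 3, and 0.47, 1.16 and 0.24 below it in HAN 1, 2 and 3, while PBS pools lay between -0.13 and 0.12. Their part in the iron gene values was not tested.

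Cells take up iron mainly as ferric iron bound to transferrin (Trf), which docks on the transferrin receptor and is carried into endosomes, where the iron is reduced and passed to the cytosol by the transporter Slc11a2. Iron that is not used is held in ferritin, a shell of heavy (Fth1) and light (Ftl1) chains, or leaves through the exporter ferroportin (Slc40a1) with the help of a ferroxidase such as ceruloplasmin (Cp). The iron regulatory proteins Aco1 and Ireb2 bind hairpins in some of these messages when iron is scarce, which stabilises the Tfrc message and blocks translation of the ferritins. In the retina, iron reaches the neurons across the blood-retina barrier, and loss of ferroxidases in mice leads to iron build-up and retinal degeneration.

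Tfrc encodes the receptor itself, and its promoter is known for a site of hypoxia-inducible factors, the same factors that drive the gene for vascular endothelial growth factor. The stretch below is shown because Tfrc is the gene that was picked. It runs from 250 bases before to 10 bases after the annotated 5′ start, chr16:32608646-32608905 on the plus strand (RefSeq, GRCm38.p6), and the capitals mark ACGTG, the core letters of such a site.

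Tfrc promoter: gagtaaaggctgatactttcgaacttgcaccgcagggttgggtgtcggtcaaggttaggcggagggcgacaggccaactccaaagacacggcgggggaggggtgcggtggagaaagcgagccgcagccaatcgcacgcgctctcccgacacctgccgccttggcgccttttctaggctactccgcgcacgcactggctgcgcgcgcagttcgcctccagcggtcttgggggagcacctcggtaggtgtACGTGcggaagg

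ACGTG was searched on both strands of windows of 300 bases around each start. It was present in 19.6% of all 32851 windows, and in 2 of the 9 windows listed for 6 of the iron genes (Aco1, Cp, Fth1, Ftl1, Ireb2 and Tfrc), both of Tfrc; these windows overlap and share the same site, so it is 1 site in 1 of 6 genes. A match of 5 letters describes the sequence and does not show a bound site.

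Tfrc was higher in all peptide pools than in any PBS pool. Its probe with the highest signal, A_52_P228236, which is printed as 10 spots on each array, read 0.15, 0.23 and 0.27 in AAP 1, 2 and 3. The HAN pools read 0.23, 0.39 and 0.24, and the PBS pools -0.04, -0.20 and -0.20. The lowest peptide pool (AAP 1) lay above the highest PBS pool (PBS 1), and the AAP and HAN pools overlapped. The spots of 1 array differed little, with SDs of 0.03 to 0.08, which is the error of reading a single array and not the spread between pools. In a bulk sample such as these pools, fewer cells of a type and less RNA per cell cannot be told apart.

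The mean level of Tfrc was 0.22 ± 0.06 in AAP pools and -0.15 ± 0.09 in PBS pools (SD, n = 3 each), a difference of 0.37 (95% interval 0.19 to 0.54), or 1.29-fold. The difference itself did not use the HAN arrays that picked the gene, but it shares the PBS pools with the comparison that did. Its interval and p-value also draw on the HAN arrays, through the spread estimated from all groups together. The difference did not pass the test over all genes (limma adjusted p = 0.621). With only the AAP and PBS pools fitted, limma's adjusted p was 0.843. Within slide 1, AAP 1 was 0.30 above the mean of the 3 PBS pools. The HAN mean was 0.29 ± 0.09 (SD, n = 3), which is 0.43 above PBS, or 1.35-fold. No HAN pool shared a slide with a PBS pool, and with slide as a fixed block, which links them through the AAP pools, the difference was 0.36. Tfrc differed by -0.07 between AAP and HAN pools, whose values overlapped.

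Before scaling, the mean intensity of the 10 spots was 2281, 2260 and 1608 in AAP 1, 2 and 3, against 2377, 2615 and 2652 in HAN pools and 2280, 1856 and 1688 in PBS pools. The AAP and PBS pools overlap on that raw scale, and the 75th percentile of the array was 1334 in AAP 3 and 1925 to 2047 in the other AAP pools, against 1999 to 2251 in HAN pools and 1934 to 2343 in PBS pools. The scaled Tfrc level of AAP 3 thus rests on a dimmer array. With quantile normalisation in place of the percentile the difference was 0.36 for AAP and 0.43 for HAN.

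**Figure D1:**
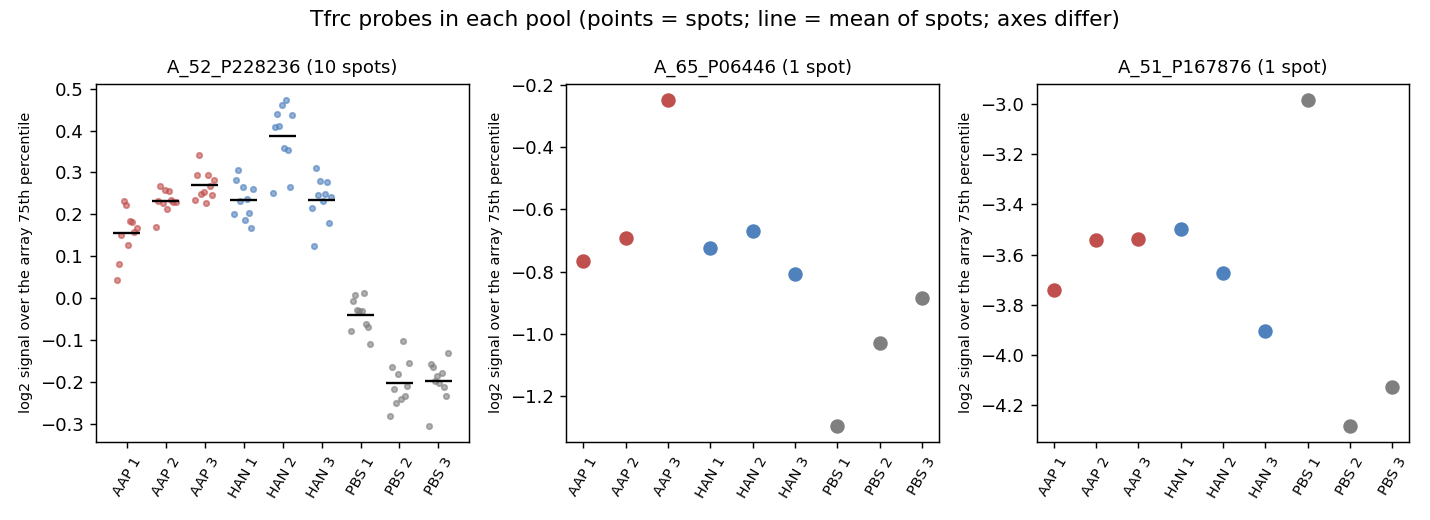
Level of each Tfrc probe in each pool, as log2 signal over the array's 75th percentile (vertical axis, scales differ between panels). In the left panel small points are the 10 spots of an array and the line is their mean; the peptide pools sit between 0.15 and 0.39 and the PBS pools between -0.20 and -0.04. In the middle panel all 6 peptide pools lie above the PBS pools, and in the right panel PBS 1 is the highest of the 9.

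Tfrc has 2 further probes, each printed as 1 spot. A_65_P06446 read -0.77, -0.69 and -0.25 in AAP pools, -0.72, -0.67 and -0.81 in HAN pools, and -1.30, -1.03 and -0.88 in PBS pools, again with every peptide pool above every PBS pool. Its AAP minus PBS difference was 0.50 (limma adjusted p = 0.699 over all probes kept) and its HAN minus PBS difference was 0.34. The dimmest probe, A_51_P167876, read -3.74, -3.54 and -3.54 in AAP pools, -3.50, -3.67 and -3.91 in HAN pools, and -2.98, -4.28 and -4.13 in PBS pools. On that probe the groups overlapped because PBS 1 was the highest pool, and the differences from PBS were 0.19 for AAP (limma adjusted p = 0.918) and 0.11 for HAN. Over the 9 arrays the brightest probe correlated with these other probes at Pearson r = 0.66 and 0.39 (Spearman 0.82 and 0.38), as a description over arrays that share the groups. The AAP minus HAN difference was -0.07 on the brightest probe and 0.17 and 0.08 on the others, so the probes differ on which peptide gave the higher Tfrc level.

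Slc11a2, the endosomal iron transporter also known as DMT1, read -0.76, -0.94 and -0.91 in AAP pools, -0.77, -0.93 and -1.05 in HAN pools, and -1.03, -0.96 and -1.02 in PBS pools. All AAP pools lay just above the PBS pools, AAP 2 by the least, while HAN overlapped PBS. The AAP minus PBS difference was 0.13 (95% interval -0.07 to 0.33, limma adjusted p = 0.800) and the HAN minus PBS difference 0.09 (-0.11 to 0.29, adjusted p = 0.787). A dimmer probe of the same gene gave -0.06 for AAP (adjusted p = 0.871) and -0.19 for HAN (adjusted p = 0.480), and across the 9 arrays the 2 probes ran against each other (Pearson r = -0.57, Spearman -0.33). No direction can be given for Slc11a2.

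Trf, the iron carrier that Tfrc binds, was among the bright genes of the retina. Its level was 5.70, 4.89 and 4.71 in AAP pools, 4.72, 4.65 and 4.96 in HAN pools, and 5.14, 5.09 and 5.26 in PBS pools. AAP 1 was the highest of the 9 pools, the other AAP pools lay with the HAN pools, and every HAN pool was below every PBS pool. The HAN minus PBS difference was -0.38 (95% interval -0.93 to 0.16, limma adjusted p = 0.622). That interval uses the spread of all 3 groups, with SDs of 0.53 in AAP, 0.16 in HAN and 0.09 in PBS pools. With only the HAN and PBS pools fitted, limma's adjusted p was 0.298. The HAN difference turned to 0.42 with slide as a fixed block, a fit that reaches PBS through AAP 1. The AAP minus PBS difference was -0.06 (-0.60 to 0.49, adjusted p = 0.972). The second Trf probe followed the first closely over the arrays (Pearson r = 0.98, Spearman 0.98), with differences of -0.39 and -0.13.

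AAP 1 decides the Trf mean of its group. Without AAP 1 the AAP minus PBS difference was -0.36, and within slide 1, AAP 1 was 0.54 above PBS. In the same pool, Rpe65, the retinoid isomerase of the pigment epithelium, was at 3.10, against 1.67 and 1.82 in the other AAP pools, 1.20 to 1.90 in HAN pools and 1.76 to 1.89 in PBS pools. Other genes of that list ran the other way there: Mlana, a melanosome gene, was at 0.64 in AAP 1, against 1.69 to 2.37 in PBS pools. The pigment epithelium list as a whole (8 of 9 measured) was 0.32 above the PBS mean in AAP 1, the oligodendrocyte list (8 of 10 measured) 0.59 and the erythroid list (5 of 11 measured) 0.96. Pigment epithelium and oligodendrocytes are known sources of transferrin; their part in the Trf values was not tested.

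**Figure D2:**
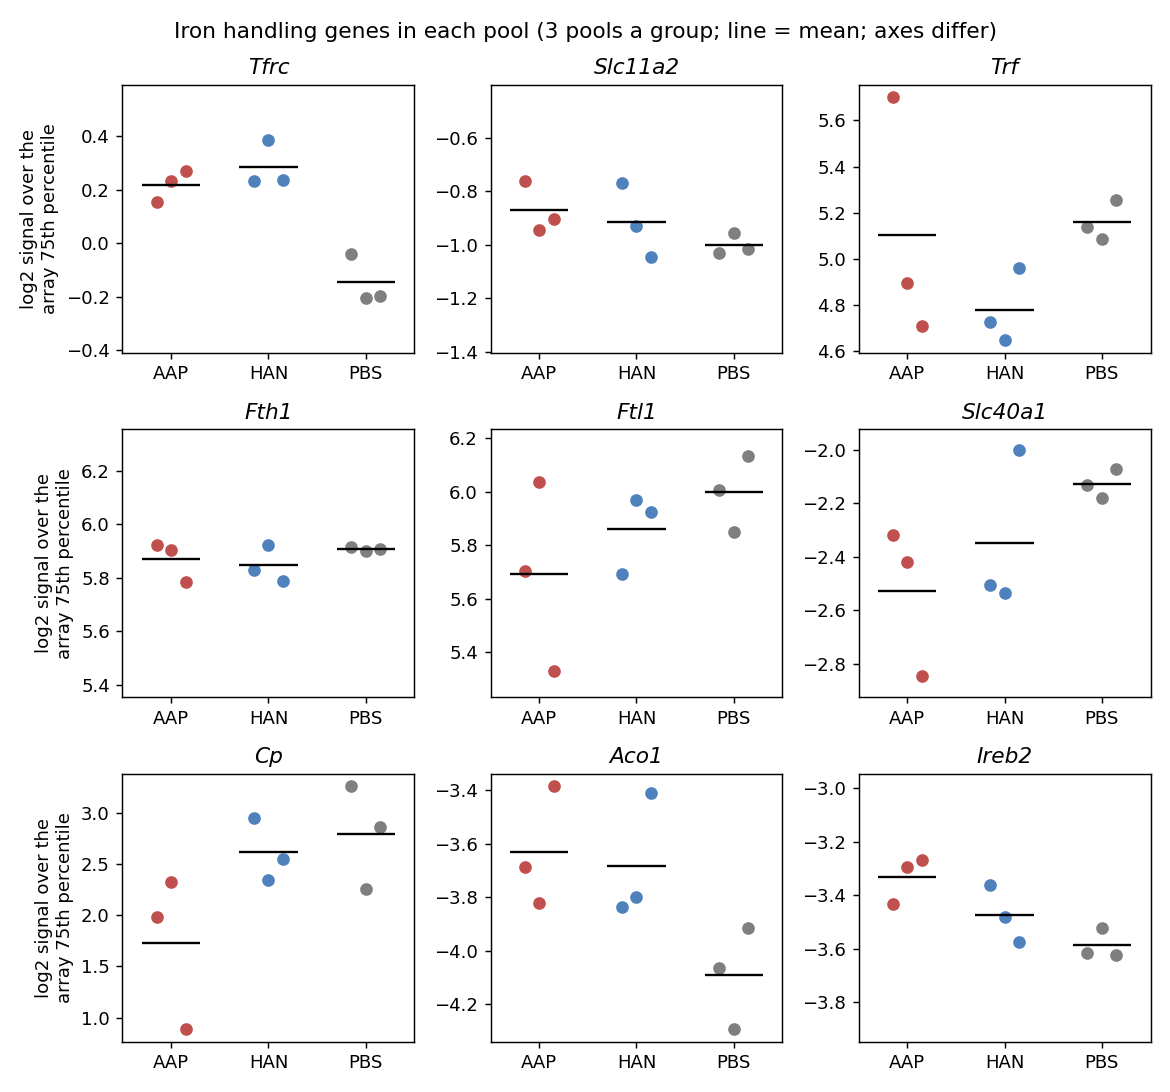
Level of each of the 9 iron genes in each pool, as log2 signal over the array's 75th percentile (vertical axis, scales differ between panels), with AAP, HAN and PBS from left to right, 1 point for a pool and a line for the mean of 3. Tfrc and Aco1 show both peptide groups clear of PBS, Fth1 shows nearly level points between 5.79 and 5.92, and Trf and Cp show a single AAP pool far from the others.

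Fth1, the ferritin chain that oxidises iron as it enters the shell, was nearly level across the pools. It read 5.92, 5.91 and 5.79 in AAP pools, 5.83, 5.92 and 5.79 in HAN pools, and 5.92, 5.90 and 5.91 in PBS pools. The AAP minus PBS difference was -0.04 (95% interval -0.18 to 0.11, limma adjusted p = 0.922) and the HAN minus PBS difference -0.06 (-0.21 to 0.09, adjusted p = 0.801). Its SD between pools of a group, pooled over the groups, was 0.06, with 5.89% of all genes below it.

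Ftl1, the ferritin chain that favours storage, varied more. It read 5.70, 6.04 and 5.33 in AAP pools, 5.69, 5.97 and 5.92 in HAN pools, and 6.01, 5.85 and 6.13 in PBS pools. AAP 3 was the lowest pool and both peptide groups overlapped PBS. The differences from PBS were -0.31 for AAP (95% interval -0.71 to 0.10, limma adjusted p = 0.764) and -0.14 for HAN (-0.54 to 0.27, adjusted p = 0.842). With AAP 2 as the only AAP pool, the one without raised muscle genes, the AAP difference was 0.04.

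Slc40a1, which encodes ferroportin, the iron exporter of the cell surface, was lower in every AAP pool than in any PBS pool. It read -2.32, -2.42 and -2.85 in AAP pools, -2.50, -2.53 and -2.002 in HAN pools, and -2.13, -2.18 and -2.07 in PBS pools. HAN 1 and HAN 2 also lay below the PBS pools, but HAN 3 was the highest of all 9. The AAP minus PBS difference was -0.40 (95% interval -0.81 to 0.01, limma adjusted p = 0.730) and the HAN minus PBS difference -0.22 (-0.63 to 0.19, adjusted p = 0.732). Within slide 1, AAP 1 was 0.19 below PBS. Macrophages carry much ferroportin, and the microglia and macrophage list ran lowest in AAP 3 among AAP pools and least low in HAN 3 among HAN pools, as Slc40a1 did; its part was not tested.

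Cp, the ferroxidase that in the retina is made largely by glia, was the iron gene with the widest spread. It read 1.99, 2.32 and 0.88 in AAP pools, 2.95, 2.34 and 2.55 in HAN pools, and 3.26, 2.26 and 2.86 in PBS pools. AAP 3 stood far below the rest, and AAP overlapped PBS through PBS 2. The AAP minus PBS difference was -1.06, or 2.09-fold lower (95% interval -1.98 to -0.14, limma adjusted p = 0.696). The HAN minus PBS difference was -0.18 (-1.10 to 0.74, adjusted p = 0.915).

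The Cp difference leaned on AAP 3: it was -0.64 without that pool and -0.47 with AAP 2 as the only AAP pool. Within slide 1, AAP 1 was 0.81 below PBS. The Mueller glia list (8 of 8 measured) stayed within 0.15 of the PBS mean in every pool, but its genes did not all stay level. In AAP 3 Apoe was at 4.84, against 5.43 to 5.80 in PBS pools, and Aqp4 at 0.82, against 1.21 to 1.37. Glul went the other way there, at 5.24 against 4.88 to 4.97. The microglia and macrophage list was lowest in AAP 3. The list of cornea, iris and ciliary epithelium genes (6 of 6 measured) was 2.36 below the PBS mean in AAP 3. It was 1.37 below that mean in PBS 2, the low Cp pool of the PBS group, and 1.90 above it in PBS 1, the high one. It was also 1.23 above that mean in AAP 1, where Cp was low, but its genes differed there. Krt14 was at 0.39 in AAP 1, against -4.89 to -3.54 in PBS pools, and Krt5 was at 4.62, its highest level. Optc was at -2.01 in AAP 1, -4.41 in AAP 3 and -0.67 in PBS 2, and at 0.31 to 2.099 in the other pools. Relative to the PBS mean, the lens list (9 of 9 measured) was at -1.49 in AAP 1, -2.05 in AAP 3 and -2.18 in PBS 2, the pools with the lowest Cp. In the other pools it was at 0.56 to 2.22, highest in AAP 2, where Cp was 2.32. The part of these lists in the Cp values was not tested.

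Aco1, the cytosolic aconitase that turns into iron regulatory protein 1 when it lacks its iron-sulphur cluster, was higher in all peptide pools than in any PBS pool. It read -3.69, -3.82 and -3.38 in AAP pools, -3.84, -3.80 and -3.41 in HAN pools, and -4.07, -4.30 and -3.91 in PBS pools. The AAP minus PBS difference was 0.46, or 1.38-fold (95% interval 0.08 to 0.84, limma adjusted p = 0.692), and the HAN minus PBS difference 0.41, or 1.33-fold (0.03 to 0.78, adjusted p = 0.498). Neither passed the test. Within slide 1, AAP 1 was 0.41 above PBS, and with slide as a fixed block the HAN difference was 0.19.

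Ireb2, the iron regulatory protein 2 that is degraded when iron is plentiful, was higher in AAP pools. It read -3.43, -3.29 and -3.27 in AAP pools, -3.36, -3.48 and -3.58 in HAN pools, and -3.62, -3.52 and -3.62 in PBS pools. Every AAP pool lay above the PBS pools, and HAN 3 lay among them. The AAP minus PBS difference was 0.26, or 1.19-fold (95% interval 0.08 to 0.44, limma adjusted p = 0.668), and the HAN minus PBS difference 0.12 (-0.07 to 0.30, adjusted p = 0.666). Both regulators gave dim signals, well above background on all 9 arrays, and within slide 1 Ireb2 was 0.16 higher in AAP 1. With a normexp background correction in place of the processed signal, the HAN differences were 0.73 for Aco1 and 0.68 for Ireb2, so the size of their HAN differences depends on how background is removed.

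**Figure D3:**
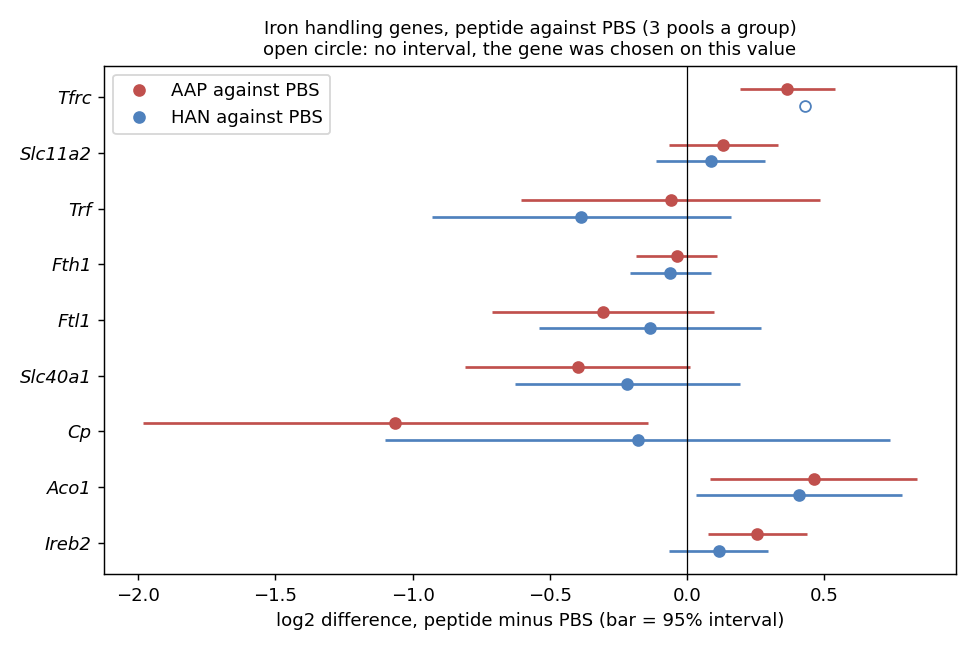
Difference of each iron gene from PBS on the log2 scale (horizontal axis), AAP in red above HAN in blue, with 95% intervals from the limma fit over 9 arrays; the open circle is Tfrc in HAN, which picked the gene and has no interval. In AAP the intervals of Tfrc, Aco1, Ireb2 and Cp leave out 0, before any adjustment over genes, and in HAN that of Aco1 does.

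Counted together, 0 of the 9 genes passed limma's test between AAP and PBS, where 0.00419% of all genes did. At an unadjusted p under 0.05 there were 4 of 9 (Tfrc, Aco1 and Ireb2 higher, Cp lower), beside 6.79% of all genes (4.16% higher and 2.63% lower). Tfrc was picked against these same PBS pools, and without it the count was 3 of 8. The AAP and PBS pools did not overlap for 5 of 9 (Tfrc, Slc11a2, Aco1 and Ireb2 higher, Slc40a1 lower), beside 11.9% of all genes (6.52% higher and 5.39% lower), and without Tfrc for 4 of 8. The median difference over the 9 was -0.04, against 0.00 over all genes. These genes and the lists below were chosen with earlier results of these data known. The counts here and below describe them and are not a test of the sets.

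Between HAN and PBS, 0 of the 8 genes other than Tfrc passed, against 0.00419% of all genes, and at an unadjusted p under 0.05 there was 1 of 8 (Aco1, higher), beside 9.65% of all genes (5.48% higher). The groups did not overlap for 2 of 8, Aco1 higher and Trf lower, close to the 20.8% of all genes (10.5% higher and 10.3% lower). Between AAP and HAN, 0 of 8 passed, as did 0% of all genes, and 0 of 8 had an unadjusted p under 0.05, beside 8.54%. Only Cp of these 8 showed no overlap between the peptides, beside 14.3% of all genes (6.74% lower in AAP): it was lower in AAP pools, with a difference of -0.88 (95% interval -1.80 to 0.04, limma adjusted p = 0.574). Both peptides were set against the same PBS pools, so the AAP and HAN differences of a gene are not independent of each other.

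**Figure D4:**
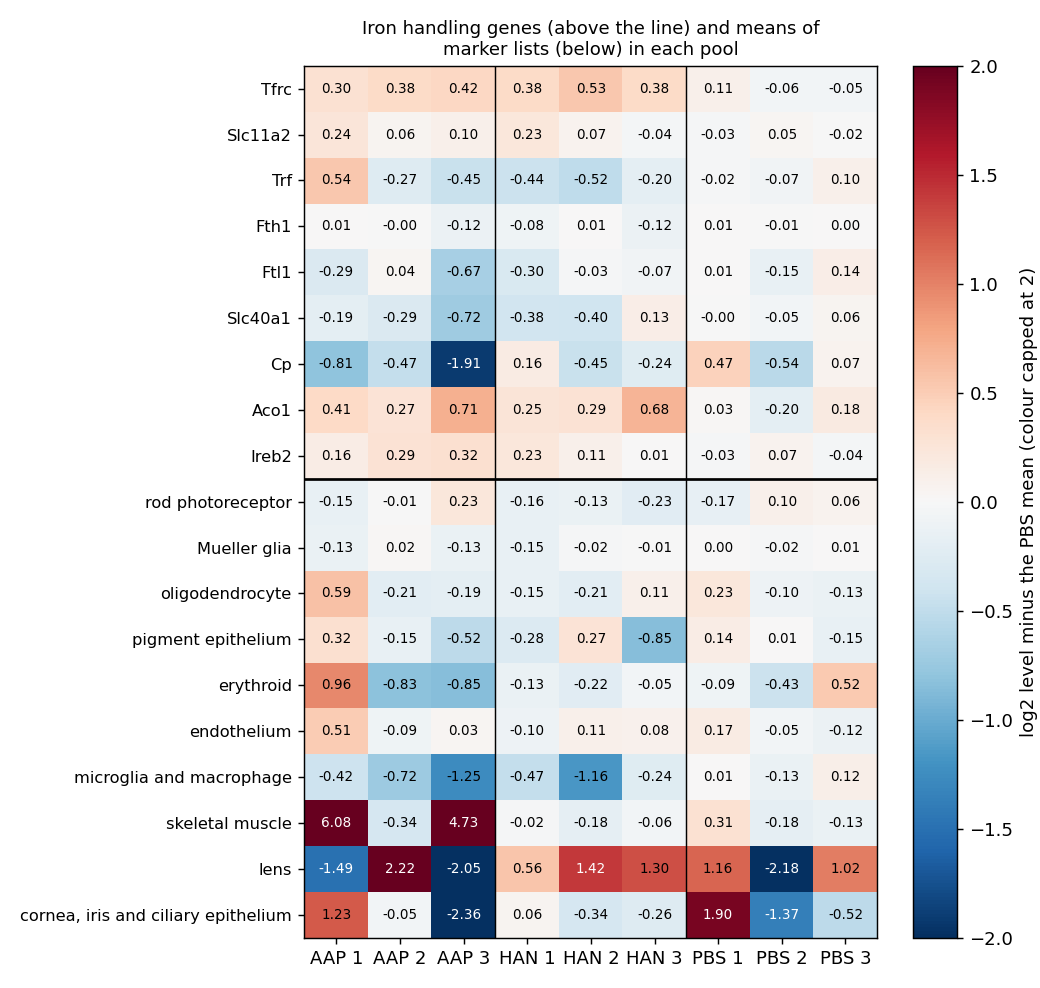
Each pool's log2 level minus the PBS mean (colour and printed value, colour capped at 2) for the 9 iron genes above the line and for the mean of each cell type marker list below it. Tfrc and Aco1 are above 0 in all 6 peptide pools, and the muscle list is far above 0 in AAP 1 and AAP 3.

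The other genes of iron and haem handling were read from 6 lists with 69 genes, of which 62 were measured. In none of the 3 comparisons did a gene of these lists pass limma's test, which 0.00419% of all genes passed between either peptide and PBS and 0% between the peptides. At an unadjusted p under 0.05 there were 4 of 62 between AAP and PBS, 2 between HAN and PBS, and 4 between AAP and HAN, beside 6.79%, 9.65% and 8.54% of all genes. The groups did not overlap for 9, 9 and 7 of 62, beside 11.9%, 20.8% and 14.3% of all genes. Both peptide counts at p under 0.05 against PBS, and the HAN count of no overlap, include Steap4, a dim gene described below. The median differences were -0.05, -0.03 and -0.03, against 0.00, 0.01 and 0.00 over all genes.

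In the list of uptake and reduction (12 of 13 measured), the median differences were -0.14 for AAP and -0.06 for HAN, with 0 of 12 past limma's adjusted p of 0.05 in either. At an unadjusted p under 0.05 there were 2 in AAP and 2 in HAN, beside 6.79% and 9.65% of all genes. For 3 in each the pools did not overlap PBS, beside 11.9% and 20.8% of all genes. Steap4 is among the 2 in each and among the 3 in HAN. It was above background on only 3 arrays, so it was kept through a single group. It read -5.56, -6.30 and -5.87 in PBS pools, against means of -7.33 in AAP and -7.25 in HAN pools. Tfr2, a second transferrin receptor that senses iron in liver and red cell precursors, read -1.54, -1.47 and -1.37 in HAN pools and -1.83, -1.68 and -1.85 in PBS pools. These did not overlap, and the difference was 0.32 (95% interval 0.15 to 0.50, limma adjusted p = 0.359). In AAP pools Tfr2 was at -1.75, -1.71 and -1.63, which overlaps PBS (difference 0.09, adjusted p = 0.844).

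Lcn2, a siderophore-binding protein of inflamed tissue that carries iron without transferrin, was lower in every peptide pool. It read 0.44, -0.31 and -1.63 in AAP pools, 0.11, -0.21 and 0.75 in HAN pools, and 1.19, 1.099 and 1.25 in PBS pools. The differences were -1.68 for AAP (95% interval -2.79 to -0.57, limma adjusted p = 0.664) and -0.97 for HAN (-2.08 to 0.15, adjusted p = 0.563). Within slide 1, AAP 1 was 0.74 below PBS, and with slide as a fixed block the HAN difference turned to 0.18. The microglia and macrophage list was also below PBS in every peptide pool, lowest in AAP 3 and HAN 2 as Lcn2 was; its part was not tested. The importer Slc39a14 differed by -0.10 in AAP and -0.08 in HAN (adjusted p = 0.796 and 0.732), and the endosomal reductase Steap3 by 0.01 and 0.07 (adjusted p = 0.988 and 0.833).

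Storage and export (5 of 7 measured) and iron sensing with the hepcidin axis (9 of 12 measured) had medians of -0.02 and -0.12 for AAP and -0.01 and -0.02 for HAN. In both lists 0 passed limma's test. In both, 0 had an unadjusted p under 0.05, beside 6.79% of all genes in AAP and 9.65% in HAN. In AAP 0 and 3 did not overlap PBS, beside 11.9% of all genes, and in HAN 1 and 0, beside 20.8%. Ncoa4, the receptor that delivers ferritin to the lysosome, differed by -0.02 in AAP and -0.08 in HAN (limma adjusted p = 0.962 and 0.746). Heph, a membrane ferroxidase related to Cp, differed by -0.29 and 0.03 (adjusted p = 0.824 and 0.977). Fbxl5, the ubiquitin ligase adaptor that removes Ireb2 when iron is plentiful, read 1.04, 1.14 and 1.05 in AAP pools and 1.15, 1.32 and 1.17 in PBS pools, a difference of -0.14 with no overlap (adjusted p = 0.775), and differed by -0.05 in HAN (adjusted p = 0.883). Hfe, which binds the transferrin receptor, differed by -0.18 and -0.07 (adjusted p = 0.747 and 0.839), and Bmpr1a, a receptor of the hepcidin pathway, by -0.03 and -0.13 (adjusted p = 0.958 and 0.694).

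Mitochondrial iron and iron-sulphur genes (16 of 16 measured) had medians of -0.03 for AAP and -0.04 for HAN. Of these 0 passed limma's test. An unadjusted p under 0.05 was seen for 2 in AAP and 0 in HAN, beside 6.79% and 9.65% of all genes. In each, 3 did not overlap PBS, beside 11.9% of all genes in AAP and 20.8% in HAN. Isca1, a cluster assembly factor, was below every PBS pool in all 6 peptide pools, at 1.60, 1.69 and 1.51 in AAP pools and 1.62, 1.65 and 1.65 in HAN pools, against 1.72, 1.79 and 1.74 in PBS pools. Its differences were -0.15 for AAP (limma adjusted p = 0.724) and -0.11 for HAN (adjusted p = 0.604).

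Haem synthesis (9 of 9 measured) and haem transport and breakdown (11 of 12 measured) had medians of -0.01 and -0.05 for AAP and -0.04 and -0.04 for HAN. In both lists 0 passed limma's test. In both, 0 had an unadjusted p under 0.05, beside 6.79% of all genes in AAP and 9.65% in HAN. In AAP 0 did not overlap PBS, beside 11.9% of all genes, and in HAN 2 and 0, beside 20.8%. Alas1, the first enzyme of haem synthesis in most cells, differed by 0.04 in AAP and 0.15 in HAN (limma adjusted p = 0.927 and 0.571), and Uros, a later enzyme, by 0.14 and 0.09 (adjusted p = 0.772 and 0.759). The haem exporter Flvcr1 differed by 0.03 and 0.10 (adjusted p = 0.957 and 0.743), and Lrp1, which takes up haem bound to haemopexin, by -0.17 and -0.08 (adjusted p = 0.806 and 0.869). Hmox1, the enzyme that frees iron from haem, spread too widely to compare: it read -1.62, 1.103 and -1.78 in AAP pools, -1.12, -0.30 and 0.60 in HAN pools, and 0.08, -0.86 and 0.43 in PBS pools (adjusted p = 0.888 for AAP and 0.966 for HAN).

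**Figure D5:**
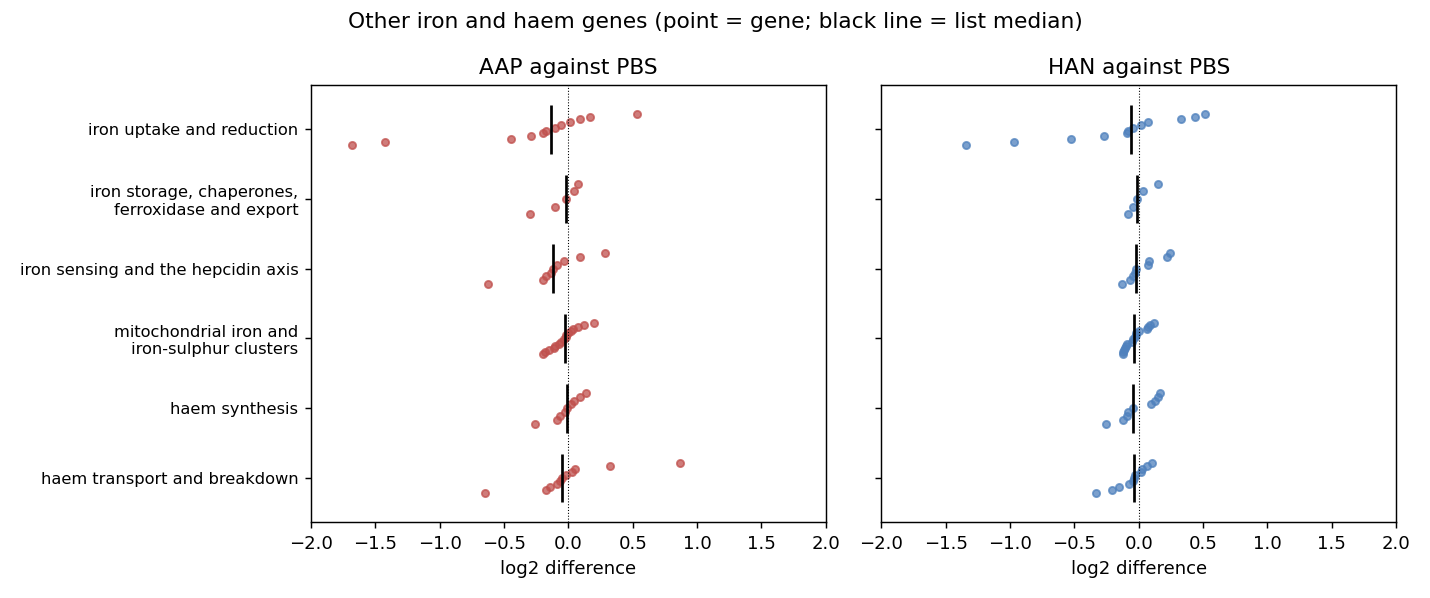
Difference from PBS on the log2 scale (horizontal axis) for every measured gene of the 6 iron and haem lists, AAP on the left and HAN on the right, with 1 point for a gene and a black line for the list median. The medians lie between -0.14 and -0.01 in AAP and between -0.06 and -0.01 in HAN, and the widest spread is in uptake and reduction, where Lcn2 is at -1.68 in AAP.

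Across the 9 pools, the other iron genes correlated with Tfrc at Pearson r between -0.62 (Slc40a1; Spearman -0.58) and 0.70 (Aco1; Spearman 0.78). Ireb2 and Slc40a1 ran against each other (r = -0.85, Spearman -0.83), and Ftl1 ran with Cp (r = 0.76, Spearman 0.47). These describe 9 pools that share groups, slides and scaling, and carry no test.

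Among 14343 genes with a curated mRNA and a proper symbol, those whose level was most like that of Tfrc over the 9 pools included Rcor1 (Pearson r = 0.92), Ciart (0.92), Scn2a (0.91), Zfp568 (0.90), Plxna3 (0.90), Mdga2 (0.90) and Malt1 (0.89). The most opposite were Spidr (-0.98), Slc30a9 (-0.97), Pdk3 (-0.96) and Birc2 (-0.95). Since Tfrc was picked for a group difference, these are genes with a like difference between peptide and PBS pools. Spidr read -0.94, -1.10 and -1.13 in AAP pools, -1.07, -1.16 and -1.02 in HAN pools, and -0.79, -0.60 and -0.71 in PBS pools, so its groups part as those of Tfrc do, in the other direction. Slc30a9 read 0.42, 0.40 and 0.41 in AAP pools, 0.42, 0.35 and 0.39 in HAN pools, and 0.63, 0.71 and 0.65 in PBS pools. Ciart, a repressor of the circadian clock, read -2.73, -2.50 and -2.33 in AAP pools, -2.45, -2.52 and -2.46 in HAN pools, and -2.97, -3.06 and -2.98 in PBS pools. Under the alternatives tried, r stayed between 0.89 and 0.92 for Mdga2 and between -0.98 and -0.79 for Spidr, but was as low as 0.41 for Rcor1 and 0.53 for Ciart.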

How the data were processed

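Retinal RNA was measured in 9 pools on 9 arrays with 44397 spots each, 43020 of them not controls. Per the file headers, Agilent Feature Extraction 11.0.1.1 read the spots, the design is annotated on mm9, and the deposited processed signal is a background-subtracted linear intensity with no normalisation between arrays. The authors' deposited value table equalled the mean intensity of a probe's spots for at least 99.7% of values on each array (relative tolerance 1e-04), so its scale and direction are settled and no centring was applied; its column medians were 265.5, 237.6 and 164.7 (AAP 1 to 3), 251.1, 242.5 and 296.5 (HAN 1 to 3) and 298.3, 256.4 and 231.9 (PBS 1 to 3). The sources used here do not state the authors' own tests.

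Levels here are log2 of the deposited intensity minus log2 of the 75th percentile of the same array. Control spots and outlier spots (103 to 160 an array, 0 of them on the iron genes) were left out, no spot was saturated, and spots of a probe were averaged to 39429 probes. Accessions gave 26055 probes a symbol (19751 symbols) and left 13374 unnamed. Probes well above background on all arrays of at least 1 group were kept (29272), and a gene was read from its kept probe with the highest mean. Of all probes, 71.6% to 79.2% were above background on an array, and arrays correlated at 0.979 to 0.995 between groups and 0.980 to 0.995 within groups. The number of arrays limits the precision. Groups were compared with limma 3.58.1 in R 4.3.3 (lmFit, eBayes, two-sided, Benjamini-Hochberg over 23889 genes), after a test on simulated data.

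The gene members and lists were chosen with earlier results of these data known. All members are named, and of the other iron genes the 1 with the smallest p in each list and peptide comparison plus Tfr2, Slc39a14, Steap3, Ncoa4, Fbxl5, Hfe, Heph and Hmox1; this is a shorter set than the rule first fixed (the 3 with the smallest p), shortened after values were seen. Genes like Tfrc are the 8 with the highest and the 4 with the lowest Pearson r; 2 genes that these rules name are not reported here. Steap4 is named besides, because of its dim signal. Promoters are RefSeq's, GRCm38.p6. Because the deposited files used here hold median and not mean spot signals, the normexp alternative used the median spot and background signals (offset 50). Alternatives also covered quantile normalisation, the value table, dim-probe filters, probe choice, slide, replicate block, array weights and left-out pools.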

Additional observations from a re-analysis of the deposited data

How the results depend on the processing

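Each difference of an iron gene was recomputed under 17 to 20 other settings. Of 361 values 18 had the opposite sign (3 of them Tfrc, AAP against HAN), and of 525 values of the other iron and haem genes named 29 did; no value that changed sign had passed the test, and the cause was not tested. Tfrc stayed above PBS under every setting, at 0.19 to 0.50 for AAP (limma adjusted p no lower than 0.249) and 0.11 to 0.49 for HAN, as did Aco1 (0.27 to 0.56, and 0.19 to 0.73) and Ireb2 (0.16 to 0.33, and 0.02 to 0.68). Tfrc was picked for its HAN rise over these PBS pools, so its HAN range only describes the values that picked it. Slc40a1 and Cp stayed below PBS in AAP (-0.50 to -0.19 and -1.36 to -0.47). Averaging the probes of Tfrc gave 0.29 for HAN against PBS and 0.06 for AAP against HAN, where its other probes gave 0.17 and 0.08.

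For AAP against PBS, leaving out 1 pool gave ranges of -0.36 to 0.14 for Trf, -0.063 to 0.0053 for Fth1, -0.0040 to 0.10 for Alas1, -0.082 to 0.040 for Bmpr1a, -0.016 to 0.11 for Flvcr1, -0.051 to 0.0027 for Ncoa4 and -0.048 to 0.097 for Steap3. For HAN against PBS the ranges were -0.45 to 0.054 for Cp, -0.11 to 0.0060 for Fbxl5, -0.13 to 0.18 for Heph, -0.59 to 0.27 for Hmox1 and -0.17 to 0.015 for Lrp1.

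Slide as a fixed block turned Trf to 0.54 and Fth1 to 0.014 in AAP; in HAN it turned Trf to 0.42, Fth1 to 0.044, Cp to 0.24, Lcn2 to 0.18, Lrp1 to 0.21, Slc39a14 to 0.0071 and Uros to -0.038. That fit rests AAP against PBS on AAP 1 alone. Its HAN differences leave out HAN 3 and also reach PBS through AAP 1, so their changes of sign are not a slide correction of HAN pools alone. As a random block, slide turned Trf to 0.032 in AAP. Under the fixed block 1 iron pathway gene passed in AAP against PBS, where 0 had: Hp, which binds haemoglobin, at 3.27 (limma adjusted p = 0.0109; named after its value was seen), with a level of -1.50 in AAP 1 and -5.20 and -5.01 in the other AAP pools, against -5.03 to -4.57 in PBS pools.

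With AAP 2 as the only AAP pool, Ftl1 was 0.040, Bmpr1a 0.069, Flvcr1 -0.13, Hmox1 1.22 and Steap3 -0.16. The normexp correction gave -0.045 for Alas1 in AAP, and 0.0015 for Slc40a1 and -0.066 for Uros in HAN. Quantile normalisation gave -0.0025 for Steap3 in AAP. The mean of a gene's probes gave -0.021 for Alas1 and -0.016 for Steap3 in AAP and -0.051 for Slc11a2 in HAN; the other Slc11a2 probe gave -0.062 in AAP and -0.19 in HAN.

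Deviations from the group means correlated at r of -0.28 to 0.40 between pools with the same number. The highest was that of PBS 1 with AAP 1, which also share slide 1. Whether pools with the same number share a source was not tested. A replicate block cannot change a difference in this balanced layout. With it Tfrc in AAP was at 0.37 (limma adjusted p = 0.799) and 0 iron genes passed. Over all genes, between AAP and PBS 1 passed, with 0 to 48 under the alternatives (48 with slide as a fixed block, 12 without AAP 2). Between HAN and PBS 1 passed (0 to 3), and between AAP and HAN 0 passed (0 to 13, the 13 without AAP 2). With 3 pools a group the median half-width of a 95% interval was 0.24. Smaller differences could thus not be told from 0 for a typical gene, even before any adjustment over genes. The test over all genes asks for more: the Tfrc difference of 0.37 in AAP did not pass it.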
